A study of Mus musculus with 6 samples.

Results

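The 10 genes described here code for the integrin chains that myeloid cells use for adhesion and phagocytosis: Itgb2, Itgal, Itgam, Itgax and Itgad of the leukocyte group, Itga4 and Itgb1, and Itgav, Itgb3 and Itgb5 of the alpha-v group. They are 10 of 21631 protein-coding genes, and their members were taken as every called peak of open chromatin that overlaps the RefSeq span of a gene or 10 kb on either side of it. Itgam and Itgax are neighbours whose windows overlap, so the 10 genes give 9 windows. The measurements are ATAC-seq libraries, in which a transposase inserts into accessible DNA, of macrophages grown from the bone marrow of wild-type BALB/c mice. Each age has 3 libraries of 50000 cells, the young from mice 3 weeks of age and the old from mice older than 78 weeks. Marrow of the long bones was crushed, non-adherent cells were removed, and what adhered was grown on, with the immunophenotype F4/80+CD169+. All 6 libraries therefore come from cultured cells. Whether the replicates of an age came from different animals or cultures is not stated in the labels, and the p-values reflect the spread among these 6 libraries, part of which may be technical. The windows held 203, 201 and 203 peaks in young replicates 1, 2 and 3 and 208, 183 and 176 in old replicates 1, 2 and 3, of 215947 to 254410 peaks in each list.

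Integrins are heterodimers of an alpha and a beta chain that span the plasma membrane and bind matrix proteins or surface molecules of other cells. Their grip is switched on from inside the cell, when talin and kindlin bind the beta chain, and once bound they signal through Src-family kinases, Syk, focal adhesion kinase and the integrin-linked kinase. The beta chain CD18, coded by Itgb2, pairs with the alpha chains of Itgal, Itgam, Itgax and Itgad, and in macrophages the Itgam pair is the complement receptor that takes up opsonised particles. The alpha-v chain pairs with the beta chains of Itgb3 and Itgb5 and serves the uptake of apoptotic cells, and the alpha4 chain with Itgb1 binds VCAM-1 and fibronectin. Accessibility of a gene is not its transcription, which was not analysed here.

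The promoter sequences of 6 of the 10 genes were matched in a RefSeq table of GRCm38.p6, which gives 250 bases before to 50 after a gene's start: Itgam, Itgax, Itga4, Itgb1, Itgav and Itgb5. All 6 lie on the plus strand, and all 6 overlapped a peak in every one of the 6 libraries, as did 57.8% of 21045 protein-coding promoters. The 3 sequences below, 300 bases each, are shown because they cover the range from the CpG-poor starts of Itgam (chr7:128062390-128062689) and Itgax (chr7:128129300-128129599) to the CpG-rich start of Itgb1 (chr8:128685404-128685703), and because peaks covered fewer bases at the Itgam start than at the other 5. They are written 5′ to 3′ on the plus strand, and capitals mark matches to the short motifs searched on both strands.
Itgam: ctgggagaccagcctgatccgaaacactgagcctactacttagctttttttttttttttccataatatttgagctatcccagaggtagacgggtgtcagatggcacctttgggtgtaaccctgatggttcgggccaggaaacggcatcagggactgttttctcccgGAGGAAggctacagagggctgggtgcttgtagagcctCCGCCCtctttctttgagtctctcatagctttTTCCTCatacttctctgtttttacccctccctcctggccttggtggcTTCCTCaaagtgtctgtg
Itgax: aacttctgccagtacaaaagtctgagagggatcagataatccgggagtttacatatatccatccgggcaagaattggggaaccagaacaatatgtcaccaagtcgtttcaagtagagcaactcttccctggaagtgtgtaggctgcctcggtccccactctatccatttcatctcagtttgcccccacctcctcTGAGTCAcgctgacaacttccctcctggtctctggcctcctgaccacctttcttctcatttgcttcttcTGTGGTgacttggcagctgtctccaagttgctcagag
Itgb1: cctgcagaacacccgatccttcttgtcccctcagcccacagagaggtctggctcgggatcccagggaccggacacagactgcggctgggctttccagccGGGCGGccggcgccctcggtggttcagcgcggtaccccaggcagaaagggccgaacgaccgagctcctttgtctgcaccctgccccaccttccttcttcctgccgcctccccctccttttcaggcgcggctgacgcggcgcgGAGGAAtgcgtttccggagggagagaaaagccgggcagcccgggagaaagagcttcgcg

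The search used GAGGAA, the purine-rich core that PU.1 and other ETS factors of myeloid cells bind. It also used TGTGGT for RUNX factors, GGGCGG as the GC box of Sp1-like factors and TGANTCA for AP-1. The core promoter element TATAAA and the E box letters CACGTG completed the set. The Itgam promoter held GAGGAA 3 times, at -84, -15 and 33 bases from the start, and a GC box at -47. GAGGAA occurs at least once in 27.2% of the promoters of the table, and it was also found in the promoters of Itgb1 (at -9) and Itgav (at -218 and -7). The Itgax promoter held an AP-1 core at -56, a motif of 7.0% of promoters, and a RUNX core at 14. RUNX cores, present in 14.7% of promoters, were found besides in the Itga4 promoter at -60. GC boxes lay in 5 of the 6 promoters, Itgax being without one, against 46.7% of all promoters, and Itgb5 had 3 of them. None of the 6 held TATAAA or CACGTG, which occur in 12.7% and 7.9% of promoters. A match describes the letters only, and no binding was measured. The promoters of Itgam and Itgax were 50.3% and 50% GC with 6 and 5 CpG, below the medians of 56.7% and 13 over all promoters, whereas those of Itgb1, Itgav and Itgb5 had 67.3%, 67.3% and 65.7% GC with 27, 24 and 20 CpG. The Itga4 promoter combined 64.3% GC with 10 CpG.

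Peaks covered the whole 300 bases in all 6 libraries at Itgax, Itga4, Itgb1 and Itgav, and at Itgb5 in all but old replicate 2, where 291 bases were covered. At Itgam the overlap was partial, with 137, 121 and 129 bases in young replicates 1, 2 and 3 and 129, 43 and 134 bases in old replicates 1, 2 and 3. These covered bases lie at the 3′ side of the window, around the start itself, and both ages overlap.

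Levels were compared as the length covered by peaks in a gene's locus, that is the gene and 10 kb on each side, after scaling each library to the same sum over all gene loci, and between genes only per kb of locus. Itgb5 (mm10 chromosome 16, 33829665 to 33949338), the beta chain of the vitronectin receptor, had the highest level with 97.0 to 109 bp per kb over the 6 libraries and lay at the 92.3rd percentile of all loci. Itgb2 (chromosome 10, 77530329 to 77565708) had 83.3 to 107.5 bp per kb and Itgb3 (chromosome 11, 104608000 to 104670476), the beta chain shared by the vitronectin receptor and the platelet fibrinogen receptor, 85.8 to 93.8 bp per kb. The range of Itgb2 overlaps those of both others, every Itgb5 value lies above every Itgb3 value, and all 3 loci stand above the rest of the family. Itgav (chromosome 2, 83722303 to 83806917) had 66.1 to 74.2 bp per kb and Itgb1 (chromosome 8, 128685654 to 128733579) 56.3 to 66.4. Itgax (chromosome 7, 128129526 to 128150657), which codes for the CD11c chain, had 48.7 to 76.0 and Itgam (chromosome 7, 128062640 to 128118491), which codes for CD11b, 49.7 to 61.7 bp per kb. Itgal (chromosome 7, 127296139 to 127335137), which codes for the CD11a chain of LFA-1, had 43.8 to 57.5 and Itgad (chromosome 7, 128173933 to 128205504), which codes for CD11d, 36.3 to 51.2 bp per kb, around the median of 42.6 over all loci. From Itgav to Itgad each neighbour in this order overlaps the next. Itga4 (chromosome 2, 79255426 to 79333114) had the lowest level, 18.3 to 25.6 bp per kb at the 30.3rd percentile, and in these units every library of every other member lay above it. The windows of Itgb5, Itga4, Itgav, Itgal and Itgad also hold other protein-coding genes (Muc13 and Umps, Cerkl, Fam171b, Zfp768 and Cox6a2), whose peaks are counted with them.

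**Figure D1:**
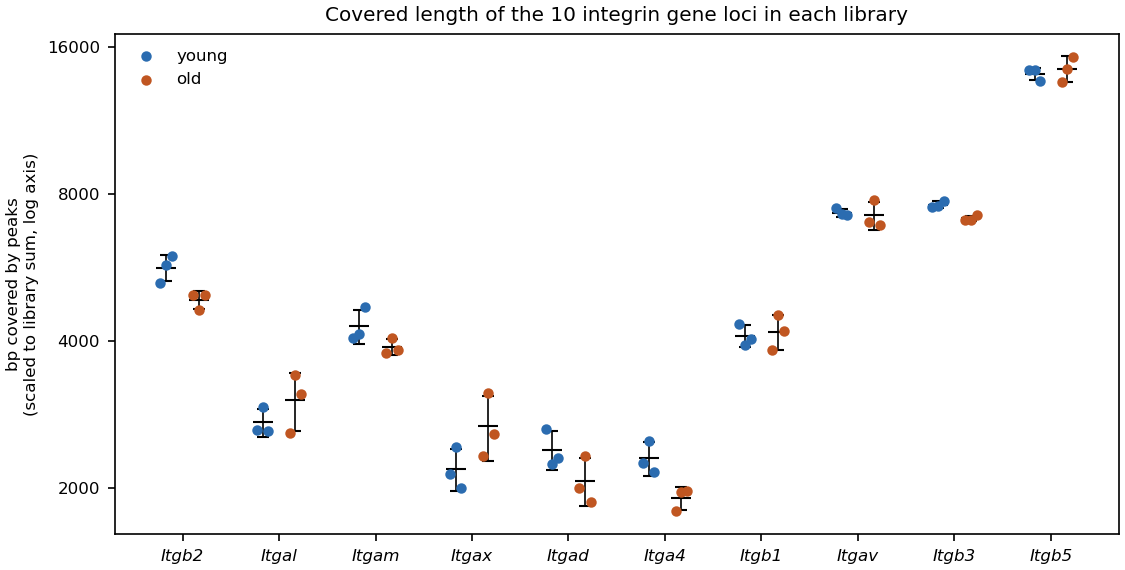
Base pairs covered by peaks in each of the 10 integrin loci (gene and 10 kb on each side), scaled to the library sum and drawn on a log axis; each point is 1 library, young in blue and old in orange, with mean and SD (n = 3). Totals are not divided by locus length, so heights are not compared between genes. Itgb5, the longest locus at 139.7 kb, has library values from 13550 to 15265 bp. The 3 old points lie below the 3 young points at Itgb2, Itgam, Itga4 and Itgb3.

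None of the 10 loci differed between ages past the threshold, an adjusted p of 0.05 (limma on the log2 of covered bp plus 200, adjusted over 16952 loci; the smallest among the 10 was 0.231). All 10 passed the filter of a mean of 500 bp or more. Over all loci tested, 0.383% were called wider and 0.578% narrower in old, so a count of 0 among 10 members is near this background. At an unadjusted p under 0.05, 3 of the 10 would be counted (Itgb2, Itga4 and Itgax), as would 12.8% of all loci. Of the 10, 4 had higher and 6 lower values in old, with a median log2 change of -0.05 beside 0.01 for all loci. In 4 loci, Itgb2, Itgam, Itga4 and Itgb3, the 3 old values lay below the 3 young values, an order seen at 8.37% of all loci, and in 0 of 10 they lay above, an order seen at 8.61% of all loci.

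Itgb2, the common leukocyte beta chain gene, was covered over 5257, 5726 and 5953 bp in young replicates 1, 2 and 3 and over 4952, 4615 and 4970 bp in old replicates 1, 2 and 3. The groups do not overlap, and the gap between them is narrower than the spread within young. The log2 change was -0.21 (SE 0.08, unadjusted p = 0.0137, adjusted p = 0.231, limma). It had the smallest p of the 10, and its sign was negative in all of the 17 other fits run, from -0.37 without scaling to -0.12 with a locus of 25 kb on each side.

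Itgam was covered over 4058, 4118 and 4678 bp in young and 3773, 4047 and 3826 bp in old libraries, in the order of their replicate numbers. Young replicate 3 was high and old replicate 2 lay next to the lowest young value. Its log2 change was -0.13 (SE 0.08, adjusted p = 0.549, limma), and it was -0.07 without young replicate 3 and 0.02 with a locus of 25 kb on each side. With peaks of a −log10 q of 2 or more it was -0.38 (unadjusted p = 0.00239, adjusted p = 0.108), and with 5 or more -0.36 (adjusted p = 0.475). Itgax, whose product marks dendritic cells and some macrophages, had 2136, 2426 and 2001 bp in young and 2328, 3126 and 2579 bp in old libraries. Here old replicate 2 was the highest and old replicate 1 lay inside the young range (log2 change 0.26, SE 0.11, adjusted p = 0.331). The neighbours Itgam and Itgax thus had values of opposite sign, neither past the threshold, and the difference between them was not tested.

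Itgal had 2625, 2929 and 2617 bp in young and 2586, 3395 and 3104 bp in old libraries (log2 change 0.14, SE 0.10, adjusted p = 0.641, limma). Its lowest and its highest value were both old. Itgad had 2643, 2236 and 2297 bp in young and 1997, 2327 and 1874 bp in old libraries (log2 change -0.20, SE 0.11, adjusted p = 0.489), with old replicate 2 inside the young range.

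Itga4 was covered over 2243, 2498 and 2149 bp in young and 1788, 1957 and 1971 bp in old libraries, with no overlap (log2 change -0.24, SE 0.11, adjusted p = 0.331, limma). The Itga4 window held 7, 6 and 10 peaks in young and 6, 3 and 3 in old libraries (two-sided exact permutation test, p = 0.2, n = 3 per age, where the smallest possible p is 0.1; 0.667 after Benjamini-Hochberg adjustment over the 10 loci). Its partner Itgb1 had 4331, 3920 and 4027 bp in young and 3824, 4514 and 4179 bp in old libraries, mixed in order (log2 change 0.02, SE 0.09, adjusted p = 0.942).

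Among the alpha-v group, Itgav had 7469, 7261 and 7217 bp in young and 6992, 7764 and 6913 bp in old libraries (log2 change -0.02, SE 0.07, adjusted p = 0.944, limma). Itgb3 had 7503, 7543 and 7736 bp in young and 7073, 7074 and 7219 bp in old libraries. The groups do not overlap and both are tight, but the difference is small (log2 change -0.09, SE 0.07, adjusted p = 0.623). Itgb5 had 14311, 14323 and 13601 bp in young and 13550, 14423 and 15265 bp in old libraries, old values lying on both sides of the young ones (log2 change 0.03, SE 0.06, adjusted p = 0.873).

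The lists differ in length and width: young replicates 1 and 3 and old replicate 1 covered 62.2, 66.1 and 63.8 Mb, and young replicate 2 and old replicates 2 and 3 covered 52.4, 48.2 and 49.0 Mb. Read depth is unknown, so the same loci were measured on the 50000 peaks of each library with the highest −log10 q. Again 0 of 10 passed (limma, 14395 loci tested, smallest adjusted p among the 10 of 0.19, 2 at an unadjusted p under 0.05, as were 14.8% of all loci), where 0.841% of loci were called wider and 0.438% narrower. Those shares fell with any 1 library left out: the 121 wider and 63 narrower loci became 45 to 85 and 6 to 25 without a young library. They became 0 and 3, 5 and 5, and 5 and 6 when the old libraries 1, 2 and 3 were dropped in turn. How much of this follows from the smaller number of libraries was not tested. The old values lay below the young in 3 of 10, against 10.5% of all loci there, and above in 0 of 10, against 9.84%.

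The 3 were Itgb2, Itgam and Itgad, all of the leukocyte group. Itgam had 1897, 1437 and 2057 bp in young and 1018, 1222 and 1379 bp in old libraries (log2 change -0.50, SE 0.16, adjusted p = 0.19, limma). Itgad had 871, 894 and 1270 bp in young and 428, 779 and 530 bp in old libraries (log2 change -0.65, SE 0.21, adjusted p = 0.199). In both loci the difference was larger than the SD within either age and did not pass after adjustment over all loci. Itgb2 had 3133, 3301 and 3257 bp in young and 2906, 3014 and 2841 bp in old libraries (log2 change -0.14, SE 0.08, adjusted p = 0.475). Itgal stood at -0.56 there (log2 change, SE 0.25, adjusted p = 0.353), opposite in sign to its value on the whole lists, and at -0.26 without old replicate 1. Itga4 and Itgb3 also had the other sign, 0.12 (SE 0.12) and 0.31 (SE 0.29), but these values were 0.04 without young replicate 3 and 0.0038 without young replicate 1, and Itgax, Itgb1, Itgav and Itgb5 had 0.05, 0.18, -0.14 and 0.03. For none of these 3 did the change pass on either set of peaks.

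**Figure D2:**
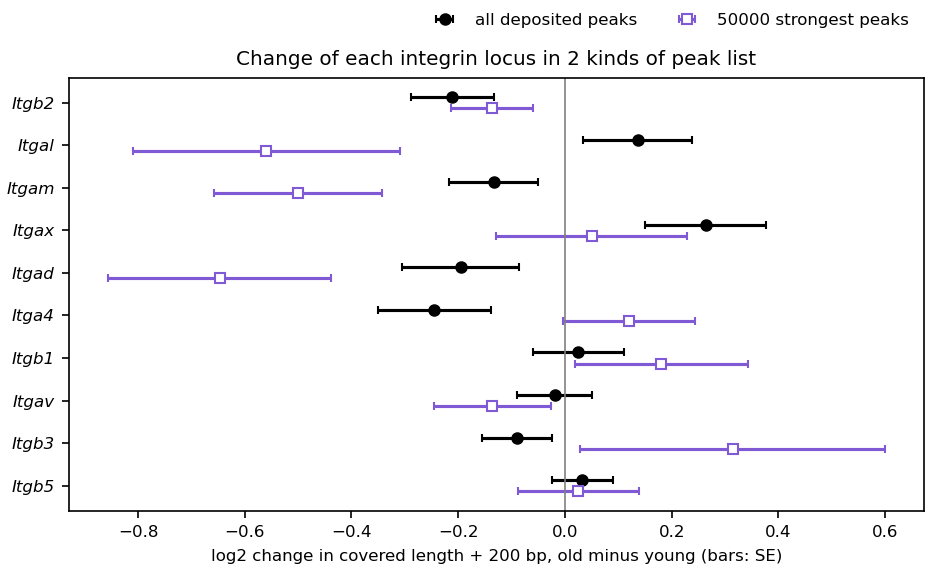
Log2 change in covered length (old minus young, on log2 of bp + 200) of the 10 integrin loci with its SE, from all deposited peaks (filled circles) and from the 50000 strongest peaks of each library (open squares). None passed an adjusted p under 0.05; Itgam lies at -0.13 and -0.50 and Itgal at 0.14 and -0.56.

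Single regions were formed by merging peaks of the 6 lists that overlap by 1 bp or more. The windows held 278 such regions of 403801 in all. Regions are counted whole; 2 of them, 1 at Itgal and 1 at Itgb1, cross the edge of a window. Their lengths below are bp before scaling, whereas the fits and the counts of groups that do not overlap use scaled lengths. Of the 278, 121 (43.5%) had a peak in all 6 libraries, compared with 30% of all regions, and 75 (27.0%) had one in a single library, compared with 40.7%. Regions shared by all 6 libraries had a median length of 441 bp and those of a single library of 74 bp. By window, the share found in all 6 libraries was highest in Itgb3 (21 of 37 regions), Itgav (15 of 27) and Itgb2 (12 of 23), and lowest in Itga4 (2 of 9) and Itgad (6 of 24). Shared regions held 85.9% to 91.7% of the covered length in the windows of each library, and 79.2% to 85.7% of that over all regions. At Itga4 the shares were 69.4%, 68.5% and 64.1% for the young replicates and 81.0%, 90.3% and 98.3% for the old ones, which do not overlap. In every other window the ages overlapped, and this difference was not tested. The Itga4 window held only 7, 6 and 10 peaks in young and 6, 3 and 3 in old libraries, so a few peaks set these shares.

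**Figure D3:**
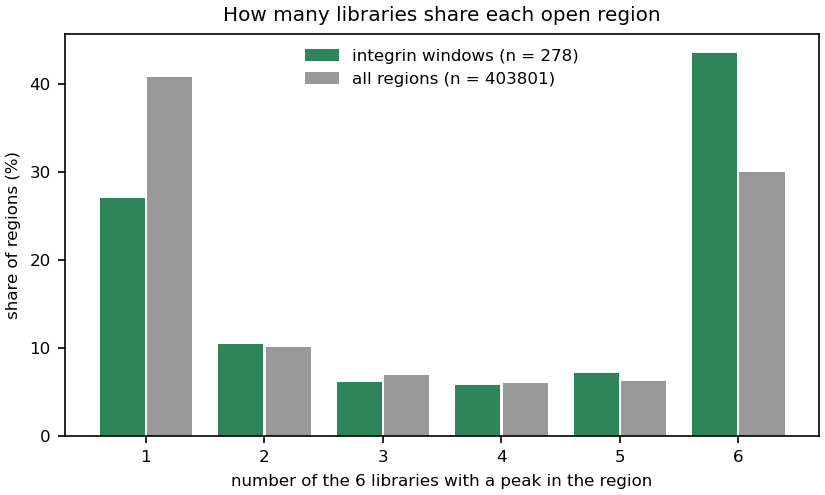
Share of open regions (%, y axis) with a peak in 1 to 6 of the 6 libraries (x axis), for the 278 regions of the integrin windows (green) and all 403801 regions (grey). Regions of the integrin windows were shared by all 6 libraries in 43.5% of cases and all regions in 30%.

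Of the 278 regions, 45 ranked among the 50000 strongest peaks in all 6 libraries, and 74 did so in at least 1 library. This is 60.8% of the 74, beside 51.1% of 65910 such regions in the genome. Of the 45, 29 were among the 193 regions in a gene body. Another 8 were among the 27 within 1 kb of a gene end, and 8 among the 58 in the flanks. Itgb5 had 12 of the 45, Itgav 7, Itgb2 6, the joint window of Itgam and Itgax 5, Itgal and Itgb3 4 each, Itgb1 3, and Itga4 and Itgad 2 each. Without the 2 regions that cross an edge, 44 of 73 regions with a strong peak had one in all 6 libraries, and Itgal had 3.

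The best-ranked region of the Itgb2 window lay in the gene body, 20.5 kb from the left end of the gene (chromosome 10, 77550852 to 77551363). Its peak ranked 867, 1320 and 1862 in the young lists and 3673, 4756 and 6765 in the old lists, of 215947 to 254410 peaks in each, and it spanned 459 to 510 bp in all 6 libraries. The covered length did not differ past the threshold (log2 change 0.11, SE 0.15, adjusted p = 0.782, limma on log2 length + 100 bp). At the left end of Itgb2, a region of 1178 bp (77530993 to 77532170) was covered over 1178, 1040 and 1176 bp in young and 1178, 1015 and 927 bp in old libraries. No peak of any library lay within 1 kb of the right end of Itgb2 except 1 of 70 bp in young replicate 1. Just beyond that distance, a region (77566731 to 77566962) had a peak in all 6 libraries, ranked 21623 to 46690.

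Of the 6 starts known here, that of Itgam had the peak with the weakest rank. Its region (chromosome 7, 128062553 to 128062893) was covered over 341, 176 and 174 bp in young and 165, 43 and 170 bp in old libraries, and the peak ranked 39926 to 89860 in its list. Young replicate 1 was the highest and old replicate 2 the lowest, and the scaled values of the ages overlap (log2 change -0.48, SE 0.31, adjusted p = 0.55, limma). A stronger region lay just inside the gene (128063248 to 128063720), with ranks from 20242 to 33911 and 365 to 473 bp in all 6 libraries. The best-ranked region of the window was further inside Itgam, 26.4 kb from the start (128089034 to 128089950), with 678, 755 and 679 bp in young and 529, 506 and 536 bp in old libraries. All 3 old values lie below the young ones before scaling, and the ages overlap after it (log2 change -0.22, SE 0.16, adjusted p = 0.602). At Itgax the start region (128128900 to 128129645) ranked 28458 to 43739, with 615, 608 and 568 bp in young and 597, 710 and 528 bp in old libraries, an overlapping order.

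At Itgal, a pair of regions lay at the left end of the gene, 127296076 to 127296789 and 127297080 to 127297524, the latter ranking 17557 to 30728. A region in the gene body (127313917 to 127314432) ranked 18469, 30015 and 18538 in young and 7145, 8007 and 8583 in old lists, with 315, 268 and 446 bp in young and 327, 246 and 273 bp in old libraries. The region across the right edge of this window (127345026 to 127346430) lies at Zfp768, a zinc finger gene, and only 1 of its peaks, in young replicate 2, overlaps the window. At Itgad no library had a peak within 1 kb of its left end except old replicate 1, with 1 of 70 bp, and at its right end peaks were 34 to 69 bp long where called. Itgav likewise had a peak near the left end of its span in old replicate 1 alone, and its start lies further inside. Both Itgad regions among the strongest peaks in all 6 libraries lay outside the gene, 3.5 kb to its left (128169932 to 128170386) and 2.6 kb to its right (128208130 to 128208654). Their covered lengths were 443, 246 and 455 bp in young against 316, 317 and 248 bp in old for the left one, and 485, 268 and 520 bp against 216, 329 and 231 bp for the right one. Both overlap between ages.

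**Figure D4:**
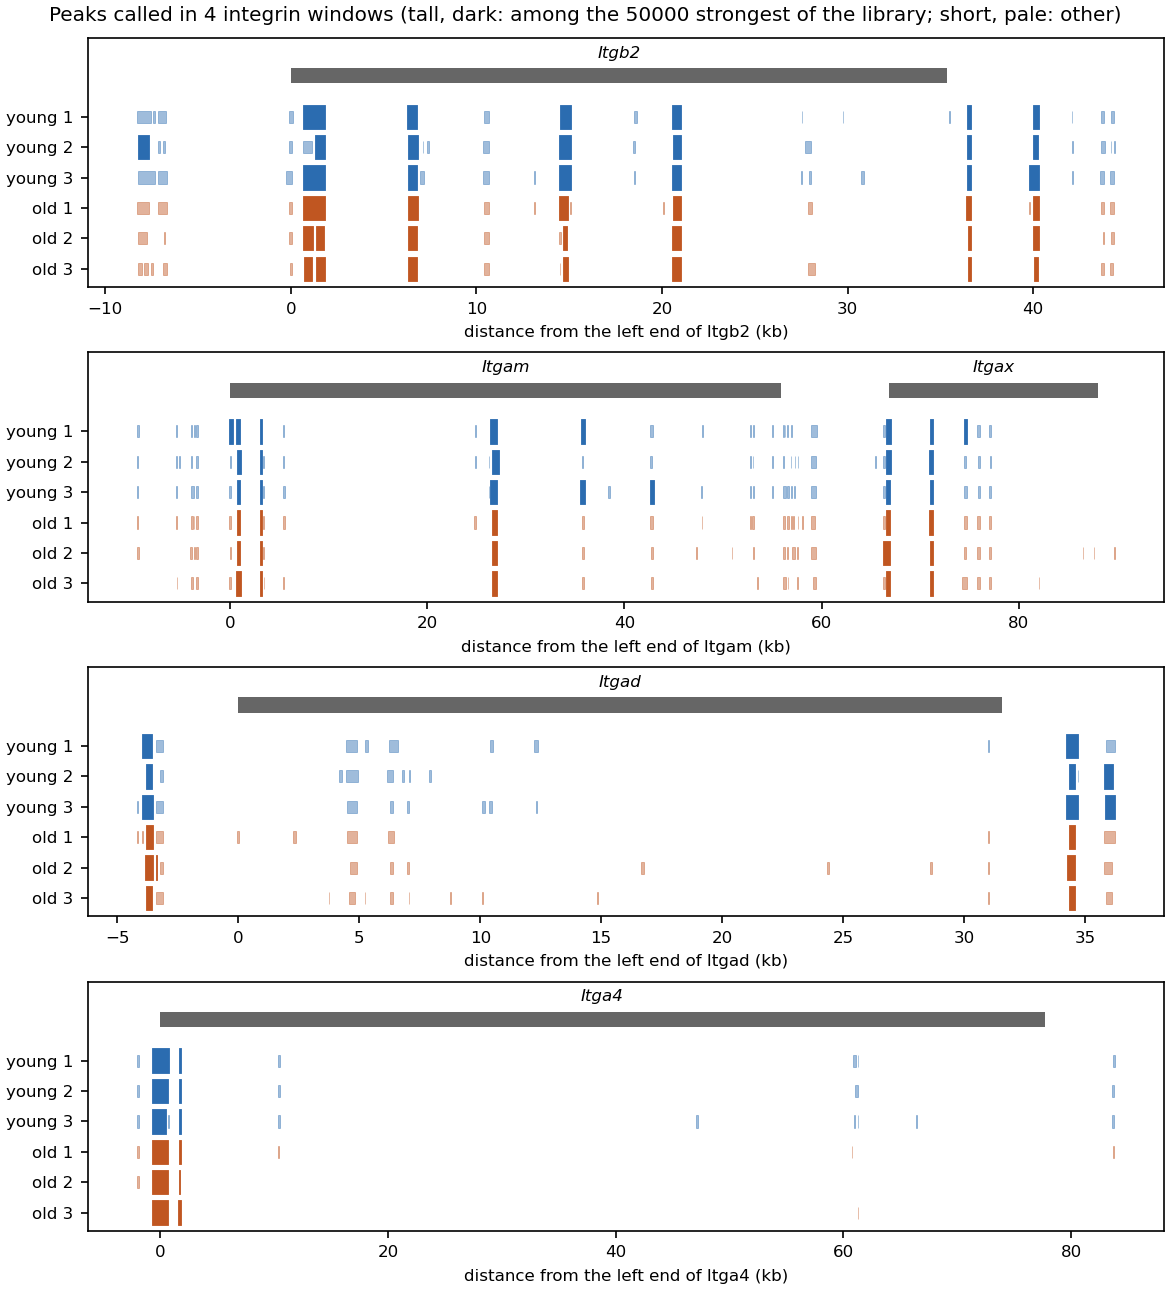
Peaks of each library in the windows of Itgb2, Itgam with Itgax, Itgad and Itga4, by distance in kb from the left end of the first gene; grey bars are genes, tall dark blocks are peaks among the 50000 strongest of that library and short pale blocks are other peaks, young in blue and old in orange. Itgb2 has 6 strong regions shared by all 6 libraries, Itgad has its 2 outside the gene, and Itga4 has its 2 at the left end with few peaks elsewhere.

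The Itgb1 start had the most even coverage of the 6 start regions: it (chromosome 8, 128685328 to 128686402) was covered over 1075, 1075 and 1071 bp in young and 1067, 1060 and 1061 bp in old libraries, before scaling. The old values are lower by a few base pairs, and after scaling the log2 change was 0.14 (SE 0.14, adjusted p = 0.7, limma). The Itgb1 start region ranked 12160 to 17783. A short region in the body of Itgb1 (128709294 to 128709535) had 134 to 242 bp and ranks from 4129 to 19881, so its weakest rank lay behind that of the start. At Itga4 the start region (chromosome 2, 79254667 to 79256183) was covered over 1509, 1419 and 1397 bp in young and 1438, 1406 and 1465 bp in old libraries, which overlap (log2 change 0.16, SE 0.14, adjusted p = 0.672). This region and the next one inside the gene (79257017 to 79257238) were the only 2 of the 9 Itga4 regions found in all 6 libraries. After scaling, the locus total and the start region of Itga4 thus had values of opposite sign. Without scaling both were negative, -0.39 for the locus and -0.0045 for the start region. The peaks called in fewer libraries lie away from the start.

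The start of Itgav lies inside its RefSeq span, in a region (chromosome 2, 83723781 to 83725311) with 1418, 1118 and 1437 bp in young and 1176, 1411 and 1415 bp in old libraries and ranks from 8278 to 25793. A region in the left flank (83713932 to 83715103), 7.2 kb from the gene, ranked 2625 to 13354. At Itgb5 the start region (chromosome 16, 33829224 to 33830875) had 1307, 1229 and 1565 bp in young and 1339, 876 and 1201 bp in old libraries and ranked 35047 to 47729. A region inside the gene, 61.8 kb from the start (33891462 to 33892360), ranked best of all integrin regions by its weakest library, at 5984, 4539 and 6204 in young and 2738, 3167 and 2951 in old lists, with 782 to 872 bp in all 6 libraries. Itgb3 had a peak of 149 to 313 bp at its left end (chromosome 11, 104607918 to 104608308), ranked 34087 to 64538, and its best region 32.9 kb inside the gene (104640934 to 104641389), ranked 6422 to 14441.

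**Figure D5:**
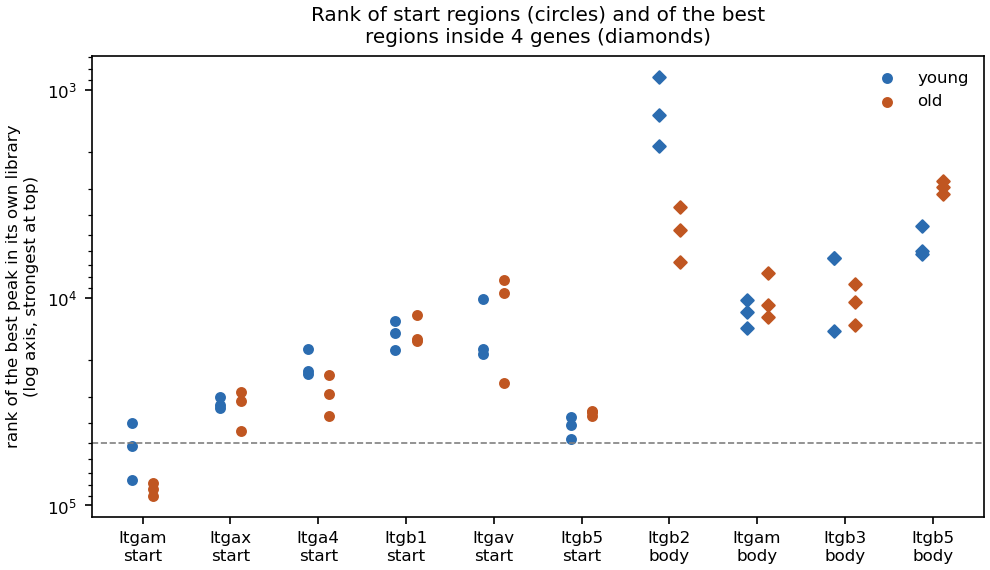
Rank of the best peak in its own library (log axis, strongest at the top) for the start regions of 6 integrin genes (circles) and for the best-ranked region of 4 windows, each inside a gene (diamonds), young in blue and old in orange; the dashed line marks rank 50000. The Itgam start lies between ranks 39926 and 89860 and the Itgb2 body region between 867 and 6765; lists differ in length, so ranks are read within a list.

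Of the 278 regions, 174 had a peak in at least 3 libraries and could be tested. None passed an adjusted p under 0.05 (limma, adjusted over 198727 regions, smallest adjusted p = 0.0792), where 0.0871% of all regions were called wider and 0.119% narrower in old. At an unadjusted p under 0.05 there were 19 lower and 5 higher in old, that is of 174, where the shares over all regions were 8.79% lower and 5.85% higher. The 3 old values lay below the young in 26 regions and above in 8, where all regions gave 10.9% and 8.57%. Among the 121 regions found in all 6 libraries, 62 had lower and 59 higher values in old. Regions with a peak in all 3 young and no old library numbered 7 of 278, or 2.52%, beside 1.42% of all regions, and 0 of 278 had a peak in all 3 old and no young library, beside 0.513%. A region with peaks at 1 age passed the filter through that age, so these counts are descriptions.

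The smallest adjusted p belonged to a region in the body of Itgb3 (chromosome 11, 104624730 to 104625477), with 611, 261 and 555 bp in young and 134, 89 and 142 bp in old libraries. Each library had a peak there and the groups do not overlap (log2 change -1.20, SE 0.23, adjusted p = 0.0792, limma). With peaks less than 200 bp apart merged into 1 region, the change was -0.61 (adjusted p = 0.0976). The best peaks of this region were weak, ranked 145110, 139850 and 113355 in young and 124133, 78119 and 97661 in old lists. Young replicates 1 and 3 each had a further peak in it, ranked 208061 and 165546. A pair of Itgb5 body regions had peaks in young libraries alone: 33936998 to 33937167 with 168, 162 and 168 bp (log2 change -1.37, SE 0.27, adjusted p = 0.0792), and 33894565 to 33894769 with 205, 167 and 147 bp (log2 change -1.40, SE 0.28, adjusted p = 0.0803), against 0 bp in each old library. Both entered this fit through the young libraries alone, so these 2 fitted p-values are no test. In the body of Itga4 (79316298 to 79316743), 267, 297 and 160 bp in young stood against 0, 0 and 29 bp in old libraries (log2 change -1.57, SE 0.32, adjusted p = 0.0861). When regions with a peak in 1 or 2 libraries were also fitted, the Itgb3 and Itga4 regions passed (limma, adjusted p = 0.000406 and 0.0136), and the 2 Itgb5 regions did not (adjusted p = 0.103 and 0.0857). In that fit 3 of the 278 integrin regions were called, all narrower in old. This is near the share over all 403801 regions, of which 4549 were called narrower and 3115 wider. A value of 0 bp means that no peak was called, and a fitted change against it depends on the added 100 bp. The other 5 regions with peaks in the 3 young libraries alone were shorter or weaker: 2 in the Itgb2 window (77548752 to 77548970 and 77572402 to 77572463), and 1 each at Itgav (83733961 to 83734181), at the right end of Itgam (128117610 to 128117742) and in the right flank of Itgb1 (128743034 to 128743251). They were covered over 38 to 218 bp in a young library, and no peak of these 7 regions ranked among the 50000 strongest.

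Among the strongest peaks, 1 region of the 74 was present in all 3 old lists and in no young list, and 0 were present in all 3 young and no old list; over the genome these shares were 3.28% and 2.61%. It lies in the body of Itgb3 (chromosome 11, 104627659 to 104628397), 2.2 kb to the right of the region just described. Its peak ranked 22453, 23520 and 21577 in the old and 61574, 51770 and 60314 in the young lists. On the whole lists it was covered in every library, over 664, 607 and 674 bp in young and 739, 739 and 738 bp in old, and the ages overlap after scaling (log2 change 0.32, SE 0.13, adjusted p = 0.32, limma). In the fit of the strongest peaks, where 58 integrin regions were tested, its young values are 0 bp by rank alone and it entered through the old libraries, so its fitted p (0.00081) is no test; 4.4% of regions were called wider and 3.79% narrower in that fit. Ranks are read within a list, and the covered length of this region did not differ past the threshold.

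Genes that work with the integrins were counted from 4 lists. Of 20 ligand loci tested, from Icam1 and Vcam1 to fibronectin and laminins, 1 passed and was wider in old: Lama1, a laminin alpha chain gene, with 2620, 2379 and 3158 bp in young and 3698, 4495 and 3679 bp in old libraries (log2 change 0.51, SE 0.11, adjusted p = 0.0278, limma). The call was lost without young replicate 1 or 2 or old replicate 2 or 3 (log2 change 0.42 to 0.56, adjusted p = 0.0601 to 0.107). F11r, which codes for the LFA-1 ligand JAM-A, had -0.33 (SE 0.09, adjusted p = 0.0823). None of 20 activation and adaptor loci passed; Tln2 and Tln1, the talin genes, had 0.12 (SE 0.05) and 0.20 (SE 0.09). None of 23 signalling and linker loci passed, Vcl, the vinculin gene, having -0.36 (SE 0.10, adjusted p = 0.102) and Parvg, the parvin of blood cells, -0.16 (SE 0.10). Of the 16 other integrin genes none passed, with Itgae, the alpha chain of the E-cadherin receptor, at -0.32 (SE 0.08, adjusted p = 0.0721) and Itgb8 at -0.32 (SE 0.09, adjusted p = 0.123). Over all loci of the deposited lists, 0.383% were called wider and 0.578% narrower in old. The medians of the 4 lists were 0.00, -0.03, -0.01 and -0.07, beside 0.01 for all loci. On the 50000 strongest peaks 1 locus passed in each of 3 lists: Tln2 was wider (log2 change 0.60, SE 0.09, adjusted p = 0.0278), Vav3, an exchange factor gene downstream of integrins, was narrower (-0.75, SE 0.11, adjusted p = 0.0284), and Itga9 was wider (0.59, SE 0.10, adjusted p = 0.0325). Without 1 library their adjusted p rose to at most 0.0928, 0.0868 and 0.11: Vav3 passed in 0 of 6 such fits, Itga9 in 1 (without young replicate 3) and Tln2 in 2 (without young replicate 2 or 3). With a replicate block no locus of any kind passed in that fit. None of the 19 ligands tested on the strongest peaks passed. The 3 lists with a call had 19 (activation), 23 (signalling) and 16 (other integrin) loci tested there. Over all loci of the strongest peaks, 0.841% were called wider and 0.438% narrower in old.

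Marker loci of the labelled cell type and of others were measured in the same way. A peak among the 50000 strongest within 1 kb of a gene end, in all 6 libraries, was found at 5 of 8 macrophage markers and at 5 of the 10 integrin genes, beside 47.7% of all genes. The same held for 2 of 7 neutrophil, 1 of 5 dendritic, 1 of 7 T and NK, 2 of 5 B-cell, 1 of 5 megakaryocyte, 4 of 7 stromal and 1 of 4 endothelial markers. Itgav was not among the 5 integrin genes, its strong start region lying 1.5 kb from the left end of its span. The summed level of the macrophage list was 59.7 to 63.5 bp per kb in young and 57.1 to 60.4 in old libraries, and that of the stromal list 64.3 to 70.6 and 65.1 to 70.8. The megakaryocyte list was the highest of the marker lists, with 73.9 to 82.6 and 75.3 to 78.3. Neutrophil markers had 57.1 to 61.8 and 57.9 to 61.2, and dendritic ones 52.9 to 58.7 and 55.4 to 64.1. Lower levels were found for T and NK (42.7 to 45.7 and 39.2 to 45.5), B-cell (30.4 to 39.4 and 36.2 to 39.4) and endothelial markers (35.1 to 35.9 and 31.5 to 33.4). None of the 8 macrophage markers passed on the deposited lists. On the strongest peaks 2 of the 7 tested were narrower in old, beside the 0.438% of all loci: Mrc1, the mannose receptor gene, with 3496, 4120 and 4011 bp in young and 1413, 1742 and 2340 bp in old libraries (log2 change -1.03, SE 0.16, adjusted p = 0.0318, limma), and Mertk, a receptor gene for the uptake of apoptotic cells, with 4329, 4191 and 4935 bp in young and 3095, 2946 and 3079 bp in old (-0.53, SE 0.09, adjusted p = 0.0347). Leaving out each library in turn, Mrc1 passed in 1 of 6 fits (without old replicate 3) and Mertk in 0 of 6, with adjusted p up to 0.104 and 0.108. On the deposited lists they had -0.26 and -0.15 (adjusted p = 0.0957 and 0.372). No other marker list had a call on either set of peaks, and the part of these 2 changes in the integrin values was not tested. No marker list but that of T and NK cells had a gene at 0 bp in any library (2 of its 7). Several of the integrins are made by more than 1 of these cell types, and the part of other cells in the integrin values was not tested.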

How the data were processed

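Each of the 6 libraries (3 young, 3 old, groups and numbers from the labels) has its own deposited broad peak list. The submitters' processing notes name the build mm10 and, with no roles, MACS2 2.1.0.20140616, Bowtie2 2.2.6, Picard, SAMtools, cutadapt 1.14 and Trim Galore 0.4.4. Per the file contents, each deposited peak carries the authors' score, a fold enrichment (a ratio over background) and a −log10 p and −log10 q; these served only for ranks and filters inside 1 list. For duplicate reads, read shifting and masked regions, no step is given in the sources used here. Depth is unknown, so a missing peak means only that none was called.

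Gene spans and promoters came from RefSeq GRCm38.p6, whose primary chromosomes are those of mm10 (chromosomes 1 to 19 and X used); strand was known for the 6 promoters alone, so other gene ends are called left and right, and exons and introns were not separated. Covered bp per locus were scaled to the library sum over all loci, and loci averaging at least 500 bp entered limma (3.58.1, R 4.3.3; trend, robust) as log2(bp + 200), regions with a peak in 3 or more libraries as log2(bp + 100), with Benjamini-Hochberg adjustment over all features and a threshold of 0.05. Changes on these scales understate those of sparsely covered features. Overlaps and figures used Python 3.11.15, numpy 2.4.6, pandas 2.3.3 and matplotlib 3.10.9. The fits were also run on simulated data as a check of the code, and their power at changes of the size seen here is not given. The members and lists were chosen with earlier results of these data known. Named regions are those at gene starts or ends, the best by rank in the weakest library, those past the threshold in any fit, those of 1 age alone, and those with the smallest p; gene lists name members past the threshold and the 2 with the smallest p. The regions with the smallest p, the second regions of Itgam and Itgal, the Itgb1 body region, the region beyond the right end of Itgb2 and the Itgad flank regions were named after their values were seen. Alternatives were other peak thresholds, list lengths, scalings, filters, pseudocounts, windows, a replicate block, a covered-length covariate and leaving out each library; refits of the strongest peaks with a block, unscaled or with a library left out, and counts without regions across a window edge, were added after the data were seen.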

Additional observations from a re-analysis of the deposited data

How the results depend on the processing

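None of the 10 integrin loci passed in any of the 17 alternative fits of the deposited lists. Counts over all loci (65 wider, 98 narrower) were 3 and 6 with a −log10 q of 5 or more, 121 and 63 on the 50000 strongest peaks (there 0 to 85 and 3 to 25 without 1 library, 1 and 4 unscaled, 0 and 0 with the block), 2 and 13 unscaled (median of all loci -0.14), 0 and 4 unfiltered, 35 and 22 with covered length as a covariate, and 98 and 178 with a replicate block. Without 1 library they were 16 to 92 and 15 to 260. Deviations from the mean of their age had r of 0.139, 0.132 and -0.162 between same-numbered libraries, and -0.322 to 0.263 between the others. With 3 libraries per age, these values cannot tell whether the numbers pair the samples. The block changed no call of an integrin locus.

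Counts over all regions (173 wider, 237 narrower) were 0 and 1 with a −log10 q of 5 or more, 2224 and 1913 on the strongest peaks, 8 and 24 unscaled, 3115 and 4549 with peaks in 1 or more libraries, 4 and 7 with a pseudocount of 50 bp, 0 and 0 with the replicate block, and 0 to 36 and 0 to 0 without 1 library. Integrin regions past the threshold numbered 1 on the strongest peaks and 3 of 278 with peaks in 1 or more libraries: the Itga4 and Itgb3 body regions of smallest p (adjusted p = 0.0136 and 0.000406, limma) and one across the right window edge of Itgb1 (128743277 to 128744177, log2 change -1.30, adjusted p = 0.00142). These 3 were narrower in old, where 4549 of 403801 regions were called narrower in the same fit.

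Signs reversed, always without a call, for Itgal (-0.56 on the strongest peaks, -0.018 unscaled), Itgam (0.024 with 25 kb flanks), Itgax (-0.087 at −log10 q of 5), Itga4 (0.23 at −log10 q of 5, 0.12 on the strongest peaks), Itgb1 (-0.13 unscaled, -0.26 with 25 kb flanks, -0.0115 with the covariate, -0.0312 to 0.0829 without 1 library), Itgav (0.0142 and 0.0197 at −log10 q of 2 and 5, 0.055 with 25 kb flanks, -0.0714 to 0.0102 without 1 library), Itgb3 (0.31 on the strongest peaks) and Itgb5 (-0.13 unscaled, -0.0134 with the covariate, -0.0096 to 0.0752 without 1 library). On the strongest peaks Itgax and Itgb5 had -0.051 and -0.096 unscaled and -0.10 to 0.13 and -0.10 to 0.12 without 1 library. Start regions reversed at Itgb5 (0.017 at −log10 q of 5, -0.20 to 0.0005 without 1 library), Itga4 and Itgb1 (-0.0045 and -0.0136 unscaled) and Itgav (-0.047 on the strongest peaks). The cause was not tested. With read depth unknown, a short or missing peak cannot be told from shallow sequencing.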
